A study of Mus musculus with 8 samples.

Results

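Among brain cells taken after experimental stroke in mice, 2601 cells met a rule for inflammatory monocytes, out of 39608 cells with at most 10% mitochondrial transcripts (39945 were deposited). The cells were selected on measured values: per 10000 unique molecular identifiers (UMIs, 1 per captured transcript) of a cell, Plac8, Ly6c2 and Chil3 together had to reach 10. P2ry12, Siglech, Gpr34, Sparc, Olfml3 and Fcrls together had to stay under 10, the MHC class II genes H2-Aa, H2-Ab1 and H2-Eb1 under 20, and the interferon genes Ifit2, Ifit3 and Rsad2 under 5. In raw UMIs, Ccr2, Vcan and F13a1 together had to reach 2, Arg1 could be at most 1, Csf3r at most 2, and Cd3e and Cd79a had to be at 0. The marker criterion left 10097 cells, and the largest later losses were to the Ccr2, Vcan and F13a1 criterion (8339 to 5010 cells) and to the Arg1 criterion (5010 to 3078).

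Classical, or inflammatory, monocytes are made in the bone marrow, leave it through the chemokine receptor CCR2 and circulate with high surface Ly6C. After a stroke they enter the injured hemisphere, where they secrete cytokines and turn into macrophages. A separate blood subset, the patrolling monocytes, has little Ly6C and more CX3CR1 and surveys the vessel wall.

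The animals were male C57BL/6J mice aged 8-9 weeks, either wild type (WT, Prdx1+/+) or labelled as lacking the antioxidant enzyme peroxiredoxin 1 (Prdx1-/-). In all groups a middle cerebral artery was blocked for 60 min with an intraluminal suture under isoflurane and then reopened. Ipsilateral (stroke side) and contralateral hemispheres were taken at 24 h or 48 h after saline perfusion, turned into single cells with an enzyme kit, passed over Percoll and sorted for live cells, and 10x Genomics 3′ libraries were made. There were 8 libraries, 1 for each combination of genotype, hemisphere and time. The contralateral hemispheres came from animals with a stroke, so no library is from an uninjured brain. The labels do not say how many animals a library holds, so p-values below measure the spread between libraries of different genotype, time or hemisphere and not between animals.

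The deposited libraries held 4189 to 5759 cells each. The monocytes had a median of 12817 to 17015 UMIs per library, against 7210 to 13197 for all cells kept. Between 0 and 3.28% of the monocytes of a library were marked as possible doublets, against 3.32% to 4.56% of all cells kept, and they were left in. Any 2 libraries shared 3 to 17 cell barcodes, and 2 barcodes were shared among monocytes. Of the 8 libraries, 2 rest on few monocytes, 31 in the WT and 28 in the Prdx1-/- contralateral library at 24 h, and the first of these stands apart in its content of S100a8, S100a9 and cell cycle transcripts, as described below.

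Prdx1 (chr4:116685544-116700822, GRCm38) was examined first, since it is the deleted gene. Its level in summed monocytes was 525, 368, 729 and 783 CPM (UMIs of a gene scaled to a common library total) in the WT contralateral 24 h, ipsilateral 24 h, contralateral 48 h and ipsilateral 48 h libraries. The 48 h libraries labelled Prdx1-/- held 6.47 CPM (19 UMIs, contralateral) and 7.48 CPM (96 UMIs, ipsilateral). The 24 h libraries labelled Prdx1-/- held 148 CPM (57 UMIs, contralateral) and 281 CPM (1961 UMIs, ipsilateral), which goes against their label. Every result on genotype below is therefore on libraries as labelled, and is also given for the 48 h libraries alone, where Prdx1 follows the labels.

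**Figure D1:**
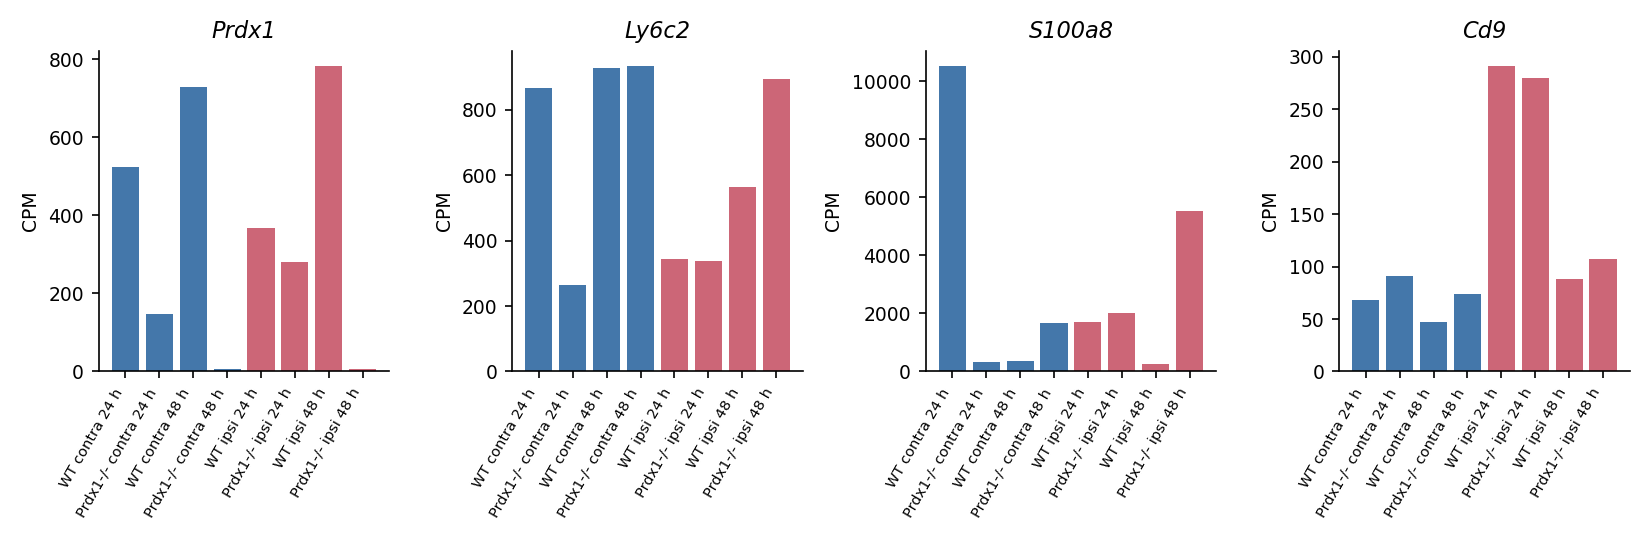
Levels of Prdx1, Ly6c2, S100a8 and Cd9 in summed monocytes of each library, in CPM, with contralateral libraries in blue and ipsilateral libraries in red. Prdx1 was near 0 in the 48 h libraries labelled Prdx1-/- (6.47 and 7.48 CPM) but not in the 24 h libraries with that label (148 and 281 CPM), S100a8 was highest in the WT contralateral 24 h library, and Cd9 was highest in the ipsilateral 24 h libraries.

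The rule uses the markers of the label, so their levels are given as a description. It sets sums over several genes and requires no single marker, and 554 of the 2601 monocytes had no Ly6c2 UMI. Plac8 (chr5:100553725-100572245), a small protein of myeloid cells, lay between 1609 and 2424 CPM. Chil3 (chr3:106147554-106167564), a secreted chitinase-like protein, lay between 6847 and 13325 CPM. Ly6c2 (chr15:75108158-75111970), which encodes the Ly6C antigen, lay between 264 and 934 CPM, and the matrix proteoglycan gene Vcan (chr13:89655312-89742509) between 217 and 592 CPM. Ly6c1, the neighbouring and closely similar gene expressed in endothelium, was at 5.38 CPM or less in every library, and reads from the pair could be split in counting. The summed marker level of single cells had a median of 94.1 per 10000 UMIs and a range of 10 to 729, and 54 cells lay between 10 and 12 per 10000, just inside the threshold, against 33 otherwise matching cells between 8 and 10. For Arg1, 437 monocytes had 1 UMI and 128 otherwise matching cells had 2, while 2164 monocytes had none and 1651 otherwise matching cells had 3 or more.

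Genes outside the rule matched the label when set against cells high in microglia genes, the only comparison made here. After every cell was thinned to 5000 UMIs, the fibronectin gene Fn1 had a UMI in 74.2% to 95.4% of monocytes per library, against 4.2% to 33.2% of cells high in microglia genes, thinned alike. S100a4 was found in 74.2% to 98.1% against 0.8% to 12%, Ifitm6 in 60.7% to 76.4% against 0.6% to 10.9%, Hp (haptoglobin) in 64.3% to 90.3% against 0.4% to 15.2%, and Emilin2 in 71.4% to 87.5% against 0.6% to 9.02%. Before thinning, these genes were found in more monocytes, for example S100a4 in 83.9% to 100%. The microglial gene Tmem119 was found in 2.64% to 16.1% of monocytes against 69.1% to 97.4% of cells high in microglia genes, Sall1 in 0 to 3.57% against 29.2% to 65.2%. The T cell gene Trac, the dendritic cell genes Xcr1 and Ccr7 and the endothelial gene Cldn5 were each found in under 1% of monocytes in every library and in at most 1.6% of cells high in microglia genes. Other genes of these cell types were found more often in monocytes. The progenitor and dendritic cell gene Flt3 was in 3.57% to 12.96% against 0 to 2%. The highest shares per library were 7.14% against 1.2% for the dendritic cell gene Clec9a, 3.23% against 0.8% for the NK cell gene Nkg7 and 6.45% against 2.2% for the endothelial gene Flt1. The part of such cells or of free RNA in these shares was not tested. Median UMIs before thinning were 7176 to 12712 in the cells high in microglia genes.

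The transcripts most abundant in ipsilateral monocytes were Lyz2 (lysozyme; 19201 ± 1715 CPM, SD, n = 4 libraries), Fth1 (ferritin heavy chain; 14212 ± 3164) and Tmsb4x (13951 ± 1078). Among the next 12, Apoe stood at 7039 ± 1557 CPM, the neutrophil-attracting chemokine gene Cxcl2 at 4950 ± 2457 CPM and Il1b at 4730 ± 1130 CPM. These last genes also varied widely from cell to cell. Cxcl2, the rule gene Chil3, Apoe, Il1b, Fth1, the interferon-induced gene Ifitm1, the chemokine gene Ccl2 and the acute phase gene Saa3 were among the 13 most variable of 2178 ranked genes in all 4 ipsilateral libraries.

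The cells were not uniform, and their make-up differed between libraries. Of the 2601 monocytes, 544 (20.9%) had 3 or more UMIs of the patrolling genes Ace, Spn, Treml4, Eno3, Ear2 and Adgre4, with 12.95% to 38.7% per library. In the 6 libraries with at least 20 such cells, they held more Plac8, Ly6c2, Cx3cr1 and Itgal than the other monocytes of the same library in 6 of 6 libraries, and less Vcan in 6 of 6. Cx3cr1 was nearly equal in the Prdx1-/- ipsilateral 48 h library (44.6 against 42.1 CPM). Of the other patrolling genes compared, Cd36 was higher in 6 of 6, Nr4a1 in 5, Cd300e in 4 and Fabp4 in 1. Cd36, Cd300e and Fabp4 were low, at 25.8 CPM or less in these cells. Plac8 lay at 2428 to 3144 CPM in them against 1221 to 2211 CPM in the others, and Ly6c2 at 371 to 1426 CPM against 327 to 757 CPM. Of the 544 cells, 131 had no Ly6c2 UMI, so the summed level and the share of cells without the gene describe different cells.

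A further group, 554 cells (21.3%), had no Ly6c2 UMI. In 6 of 6 libraries with at least 20 of them, they held more Apoe (6583 to 18899 CPM against 4736 to 7424), more Il1b (3323 to 9292 CPM against 1433 to 5110) and more Csf1r, the receptor for macrophage colony-stimulating factor, than the monocytes with a Ly6c2 UMI. They held less Plac8, Chil3, Vcan and F13a1 in 6 of 6. Their median depth was lower in every library, for example 13288 against 15828 UMIs in the Prdx1-/- ipsilateral 48 h library, and its part in these values was not tested.

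Another group, 163 cells (6.27%), had 50 or more UMIs of S100a8 and S100a9 per 10000. These genes encode the subunits of calprotectin and are high in neutrophils and in young monocytes. This group made up 8 of 31 monocytes in the WT contralateral 24 h library (25.8%) and 93 of 752 in the Prdx1-/- ipsilateral 48 h library (12.4%), but none of 28 in the Prdx1-/- contralateral 24 h library. Within the Prdx1-/- ipsilateral 48 h library, they held more Elane (neutrophil elastase; 1642 CPM against 223 in the other monocytes), Ctsg (cathepsin G; 1069 against 297), Mpo (myeloperoxidase; 770 against 234) and Ms4a3 (436 against 76.2), genes of granulocyte and monocyte precursors, and more of the proliferation gene Mki67 (276 against 42.3). They also held more of the neutrophil granule genes Camp (3203 against 37.6 CPM) and Ngp (2332 against 32.0), and less Apoe (1148 against 8079) and Csf1r (94.5 against 279). Their median depth was 19156 UMIs against 15146, and its part was not tested. The 30 such cells of the library labelled Prdx1-/- ipsilateral 24 h also had more Elane (108 against 1.27 CPM), Ms4a3 (42.7 against 0.158) and Mki67 (162 against 7.28) than the rest. Of the granule genes, Ngp (36.6 against 2.22 CPM) and Ltf (6.10 against 1.11) were higher in them and Camp was at 0 (1.58 CPM in the rest). Of the 128 monocytes with 3 or more UMIs of the granule genes Ngp, Camp and Ltf, 125 were in the Prdx1-/- ipsilateral 48 h library. Cells with 3 or more UMIs of cell cycle genes numbered 113 (4.34%), and were 22.6% of the monocytes of the WT contralateral 24 h library and 8.38% of those of the Prdx1-/- ipsilateral 48 h library. Of these 113, 52 were also in the group high in S100a8 and S100a9.

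**Figure D2:**
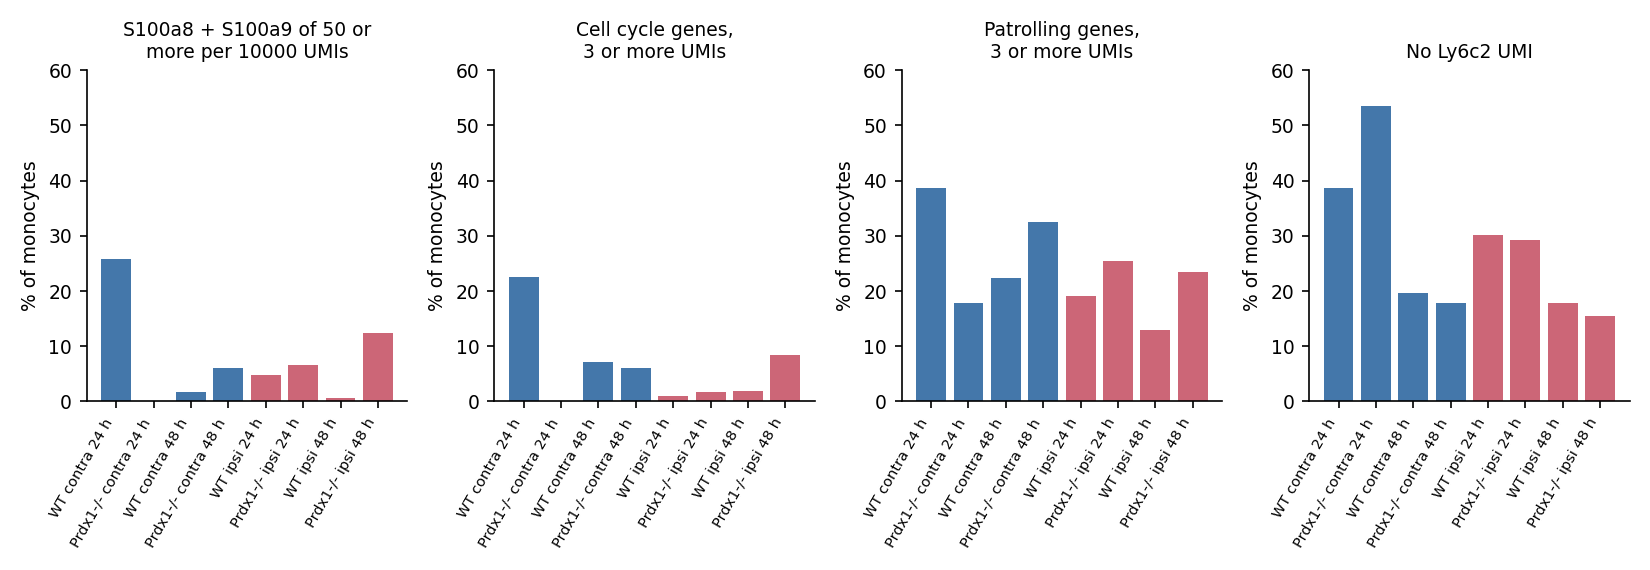
Percent of the monocytes of each library that met each of 4 descriptions, with contralateral libraries in blue and ipsilateral libraries in red. The WT contralateral 24 h library, with 31 monocytes, had the highest share high in S100a8 and S100a9 (25.8%) and with cell cycle genes (22.6%), and the Prdx1-/- contralateral 24 h library the highest share without a Ly6c2 UMI (53.6%).

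Monocytes made up a larger share of the cells on the stroke side. They were 0.654% (exact 95% binomial interval 0.445 to 0.927) and 0.538% of the cells in the WT and Prdx1-/- contralateral libraries at 24 h, and 2.69% and 3.77% in those at 48 h. On the ipsilateral side they were 5.82% (WT) and 8.02% (Prdx1-/-) at 24 h, and 14.6% and 14.9% at 48 h. Every ipsilateral library thus lay above every contralateral one, and within each side both 48 h libraries lay above both 24 h libraries. The intervals cover counting error only.

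Over all 8 libraries the share was 10.8% ± 4.60 (SD, n = 4) ipsilaterally and 1.92% ± 1.59 contralaterally. The 2-sided exact permutation test gave p = 0.0286, the smallest that 4 against 4 libraries allow, and 0.0857 after Benjamini-Hochberg adjustment over the 3 factors tested, which misses 0.05. The share depends on the other cells. Counted among cells low in microglia genes only, monocytes were 14.6% ± 2.37 ipsilaterally and 10.6% ± 2.46 contralaterally, and the exact permutation p was 0.114.

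At 48 h the share was 8.99% ± 6.66 and at 24 h 3.76% ± 3.76 (SD, n = 4 each; exact permutation p = 0.257, 2-sided). The tests of time and genotype did not match libraries by hemisphere, so the difference between hemispheres is part of their spread. Ipsilateral libraries alone gave 14.7% at 48 h and 6.92% at 24 h, where 2 against 2 libraries cannot go below p = 0.333 in the exact test. Libraries labelled Prdx1-/- had 6.81% ± 6.20 and WT libraries 5.94% ± 6.14 (exact permutation p = 0.771). In the 48 h libraries alone the shares were 9.34% and 8.64%, a difference of 0.698 percentage points (exact permutation p = 0.667, 2 against 2), and at 48 h the ipsilateral libraries of both labels differed by less than their counting intervals (14.9% and 14.6%).

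**Figure D3:**
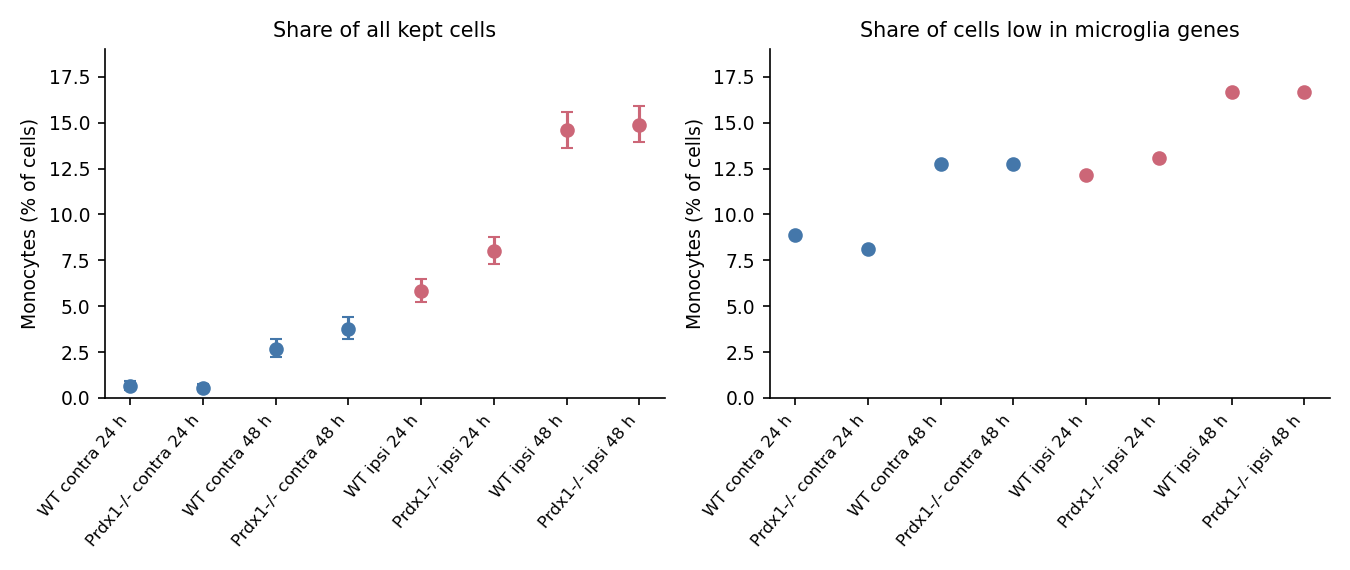
Monocytes as a percent of all cells kept (left, bars are exact 95% binomial intervals) and of cells low in microglia genes (right, no interval), for each library, with contralateral libraries in blue and ipsilateral libraries in red. On the left every ipsilateral library (5.82% to 14.9%) lay above every contralateral one (0.538% to 3.77%), and on the right the ranges overlapped.

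Monocytes of the stroke side held more Inhba, Il1rn, Arg2, Areg, Nr4a2 and 8 other called genes, and less Irf8, than those of the other side. UMIs were summed per library over the monocytes and tested by edgeR's quasi-likelihood method, with additive terms for side, labelled genotype and time point and Benjamini-Hochberg adjustment over 9361 genes. At adjusted p under 0.05, 13 genes (0.139% of those tested) rose ipsilaterally and 1 (0.0107%) fell. No gene passed without the WT ipsilateral 24 h, Prdx1-/- ipsilateral 24 h, WT contralateral 48 h or Prdx1-/- contralateral 48 h library, each left out alone, 2 passed without Prdx1-/- contralateral 24 h, 7 without WT ipsilateral 48 h, 87 without Prdx1-/- ipsilateral 48 h and 154 without WT contralateral 24 h. DESeq2 called 313. A further count needs no model: 504 genes (5.38%) had all 4 ipsilateral libraries above all 4 contralateral ones in CPM and 486 (5.19%) all 4 below. In summed counts, a change in every cell cannot be told apart from a change in which kinds of monocyte were present.

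Inhba (chr13:16011851-16031621), the subunit of the TGF-beta family ligand activin A, showed the largest called change. It stood at 33.8, 61.8, 26.1 and 32.6 CPM in the ipsilateral libraries (WT 24 h, Prdx1-/- 24 h, WT 48 h, Prdx1-/- 48 h) and at 2.82, 0, 2.18 and 2.73 CPM in the contralateral ones in the same order. The contralateral values rest on 2, 0, 4 and 8 UMIs. The fitted log2 fold change was 3.89 (SE 0.33, edgeR adjusted p = 0.00853).

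Nr4a2 (chr2:57106830-57124003), an orphan nuclear receptor induced within hours by cyclic AMP and by inflammatory signals, stood at 245, 211, 329 and 317 CPM ipsilaterally and at 90.3, 82.9, 112 and 83.5 CPM contralaterally, in the order above. The groups did not overlap and the log2 fold change was 1.65 (SE 0.13, edgeR adjusted p = 0.00853). Inhba and Nr4a2 were also the 2 genes called when each pair of hemispheres of the same genotype and time formed a block.

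Il1rn (chr2:24336853-24351494), the receptor antagonist that blocks interleukin 1, stood at 206, 184, 171 and 114 CPM ipsilaterally and at 35.3, 28.5, 55.0 and 36.8 CPM contralaterally. Its log2 fold change was 2.12 (SE 0.24, edgeR adjusted p = 0.0369). Areg (chr5:91139599-91148432), the epidermal growth factor receptor ligand amphiregulin, stood at 145, 124, 95.9 and 139 CPM against 21.2, 62.1, 29.4 and 43.3 CPM, a log2 fold change of 1.82. Arg2 (chr12:79130777-79156301), the mitochondrial arginase, stood at 102, 79.3, 79.6 and 83.8 CPM against 14.1, 10.4, 32.6 and 24.9 CPM, a log2 fold change of 2.01. Arg1, the cytosolic arginase, was in the rule and is not read here. Adora2b (log2 fold change 1.61), the adenosine receptor that raises cyclic AMP, Dusp5 (1.51), a phosphatase acting on ERK, the nuclear lamina gene Lmna (1.56), the mitochondrial pyrimidine carrier gene Slc25a33 (1.53) and Ccdc71l (1.30) completed the 10 named risers, all with edgeR adjusted p under 0.05 and no overlap between sides. The other 3 called genes, Bcl2l11, Cacna1d and Tnfaip2, fell outside the naming rule and are named after their results were seen.

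Irf8 (chr8:120736358-120756694), a transcription factor needed for monocyte development, was the only gene called lower on the stroke side. It stood at 88.7, 89.2, 82.8 and 120 CPM ipsilaterally and at 275, 318, 179 and 207 CPM contralaterally, a log2 fold change of -1.25 (SE 0.17, edgeR adjusted p = 0.0446). Microglia transcripts found in the monocytes also leaned lower on the stroke side, in 10 of 11 tested (median -0.47). Their part in the Irf8 value was not tested. The genes next in line, Dok1 (-1.13, adjusted p = 0.0560) and the immediate-early gene Fos (-0.95, adjusted p = 0.0627), did not pass the edgeR threshold, although their values in the 2 sides did not overlap either.

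**Figure D4:**
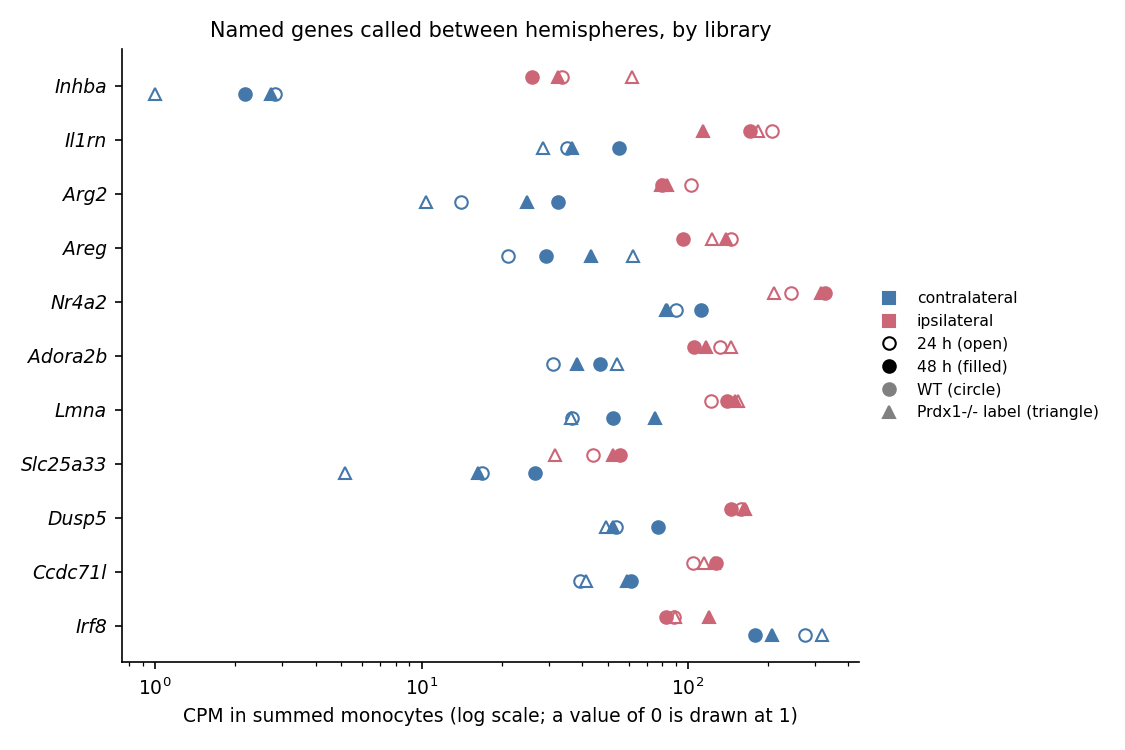
CPM (log axis) of the 11 named genes called between hemispheres, 1 point per library, with contralateral libraries in blue, ipsilateral libraries in red, 24 h open, 48 h filled, WT as circles and libraries labelled Prdx1-/- as triangles. For all 11 genes the red and blue points do not overlap, and Irf8 is the one gene with the contralateral points on the higher side.

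The start regions of Nr4a2 and Areg are shown because they hold several copies of the letters TGACG, the core of the cyclic AMP response element (full letters TGACGTCA). Capitals mark TGACG or its reverse complement, and the sequences are RefSeq promoter windows of build GRCm38.p6, 5′ to 3′ on the gene's own strand, at chr2:57123954-57124253 (minus strand) and chr5:91139349-91139648 (plus strand).
Nr4a2: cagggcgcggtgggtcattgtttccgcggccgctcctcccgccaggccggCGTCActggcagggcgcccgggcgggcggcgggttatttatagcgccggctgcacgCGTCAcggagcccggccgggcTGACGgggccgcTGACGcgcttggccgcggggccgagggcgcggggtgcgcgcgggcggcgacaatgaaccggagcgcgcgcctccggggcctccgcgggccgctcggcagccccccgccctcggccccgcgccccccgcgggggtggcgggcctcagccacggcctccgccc
Areg: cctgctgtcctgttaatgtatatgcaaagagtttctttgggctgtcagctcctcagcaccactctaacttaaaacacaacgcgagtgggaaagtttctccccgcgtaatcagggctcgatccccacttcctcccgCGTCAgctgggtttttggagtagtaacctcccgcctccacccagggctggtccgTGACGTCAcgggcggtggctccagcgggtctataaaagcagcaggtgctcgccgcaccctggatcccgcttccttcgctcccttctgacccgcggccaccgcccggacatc
The window of Nr4a2 holds 4 such matches and that of Areg 3, of which 2 form the single full element of the Areg window. Of the 14 called genes, 13 matched a RefSeq window by symbol. The letters TGACG were in a window of 4 of them (Nr4a2, Areg, Dusp5 and Slc25a33), and are in 20.8% of 32851 windows of all genes. The full element was in 1, against 1.79% of all windows. The letters TGACNNNGC, the core of the antioxidant response element, which can overlap TGACG, were in 6 of 13, against 12.4% of all windows. Both strands were searched. The counts are of genes and the percentages of windows, and the 13 genes have 19 windows. The 2 are therefore not on the same scale, and a gene with several windows has more places for a match. A match is a description of letters and not of binding.

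Since 1 contralateral library was rich in monocytes high in S100a8 and S100a9, the comparison was repeated without those 163 cells, a choice made after seeing the data. Of 9117 genes, 193 (2.12%) then rose on the stroke side and 66 (0.724%) fell, and the 14 genes above were all among them. Leaving out the WT contralateral 24 h library instead gave 117 and 37, again with all 14. Sums of the neutrophil transcripts ranged from 795 to 13704 CPM ipsilaterally and from 955 to 19766 CPM contralaterally before the cells were left out. The groups below are given by both fits, and since the second fit was chosen after seeing the data, its calls carry less weight.

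Cytokine, chemokine and NF-kB genes leaned toward the stroke side. Of 24 tested, 1 (Il1rn) passed in all monocytes, 21 had a positive log2 fold change, 9 had all ipsilateral libraries above all contralateral ones, and the median was 0.78, against -0.03 over all genes. In monocytes low in S100a8 and S100a9, 7 of 24 rose, namely Il1b, Tnf, Il10, Il1rn, Ptgs2, Tlr2 and Vegfa, and none fell. Tnf stood at 58.5, 78.2, 61.1 and 129 CPM ipsilaterally (order as above) and at 7.06, 20.7, 33.7 and 32.4 CPM contralaterally, with edgeR adjusted p = 0.0656 in all monocytes and 0.0146 in those low in S100a8 and S100a9. Il1b stood at 5143, 6141, 3818 and 3817 CPM against 1271, 3009, 2632 and 1726 CPM, with edgeR adjusted p = 0.205 and 0.0204. For both genes the 2 sides did not overlap. Transcripts of other cell types moved the same way. Erythrocyte transcripts had a positive log2 fold change in 5 of 5 (median 2.99) and stood, summed, at 408 to 7693 CPM ipsilaterally and at 18.1 to 1775 CPM contralaterally. Neutrophil transcripts were positive in 8 of 11 (median 0.89). The part of these in the group values was not tested. Of 17 phagocyte oxidase and pathogen-sensing genes, none passed in all monocytes and 5 had all ipsilateral values above. Cd14, the lipopolysaccharide co-receptor, Nlrp3, the inflammasome sensor, and the lectin receptors Clec4d and Clec4n rose in those low in S100a8 and S100a9.

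Antioxidant genes leaned the same way. Of 24 tested genes of the NRF2 and antioxidant list, none passed in all monocytes, 18 had a positive log2 fold change, 8 had all ipsilateral values above, and the median was 0.44. In monocytes low in S100a8 and S100a9, 6 rose and none fell. They were Srxn1 (sulfiredoxin, which repairs oxidised peroxiredoxins), Txnrd1 (thioredoxin reductase), Sqstm1, Fth1, Prdx6 and the metallothionein gene Mt1. Srxn1 stood at 74.4, 74.4, 70.6 and 70.5 CPM ipsilaterally and at 12.7, 12.9, 39.7 and 25.6 CPM contralaterally, a log2 fold change of 1.65 (edgeR adjusted p = 0.0930 in all monocytes and 0.00808 in those low in S100a8 and S100a9). Nfe2l2, which encodes NRF2 itself, rose by 0.64 in the second fit (edgeR adjusted p = 0.0151) and stood at 0.72 in the first (adjusted p = 0.106).

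Genes of matrix, proteases and coagulation had a positive log2 fold change in 18 of 19 tested, with a median of 0.53. None passed in all monocytes, and Thbs1 (thrombospondin 1) and the protease gene Mmp19 rose in those low in S100a8 and S100a9. Of 23 glycolysis and hypoxia genes, 18 had a positive log2 fold change (median 0.25) and none passed in all monocytes, while the lactate exporter gene Slc16a3 and Hif1a rose in the second fit. Slc16a3 stood at 316, 299, 260 and 226 CPM ipsilaterally and at 90.3, 85.5, 137 and 112 CPM contralaterally (edgeR adjusted p = 0.0560 in all monocytes). Respiratory chain genes had a median of 0.03 over 20 genes and interferon response genes a median of 0.09 over 16, with none passing in either fit.

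Other groups leaned toward the contralateral side. All 18 proliferation genes had a negative log2 fold change (median -1.80), 1 had all ipsilateral libraries below all contralateral ones, and none passed in either fit. Summed, they stood at 1188 to 3156 CPM ipsilaterally and at 1497 to 7032 CPM contralaterally, with the highest value in the WT contralateral 24 h library. In both pairs labelled Prdx1-/- the sum was higher ipsilaterally (1800 against 1497 CPM at 24 h and 3156 against 2997 CPM at 48 h), and in both WT pairs it was lower (1188 against 7032 CPM and 1370 against 3173 CPM). Among 13 patrolling monocyte genes, 9 had a negative log2 fold change (median -0.44), and none passed in all monocytes. Cx3cr1, the fractalkine receptor, and Pou2f2 fell and Dusp16 rose in those low in S100a8 and S100a9. Cx3cr1 stood at 68.5, 62.4, 52.6 and 42.9 CPM ipsilaterally and at 109, 210, 108 and 135 CPM contralaterally (log2 fold change -1.21, edgeR adjusted p = 0.0912 in all monocytes and 0.00361 in the second fit). Summed microglia transcripts, a list that includes Cx3cr1, stood at 3755 to 4845 CPM ipsilaterally and at 3450 to 6129 CPM contralaterally. Of 11 tested, 10 had a negative log2 fold change (median -0.47), and Ltc4s fell with Cx3cr1 in the second fit. Their part in the patrolling gene values was not tested.

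Among 15 immediate-early and dissociation genes, 9 had a negative log2 fold change (median -0.16). Fos, Jun, Dusp1 and Zfp36 fell in the second fit, while none passed in all monocytes. Fos stood at 1168, 1134, 1047 and 999 CPM ipsilaterally and at 1820, 2393, 2249 and 2419 CPM contralaterally. These genes can be induced while tissue is dissociated, and their part in the other results was not tested. Of the 18 myeloid transcription factor genes, Irf8 and Atf3 fell and Nfe2l2 rose in the second fit.

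**Figure D5:**
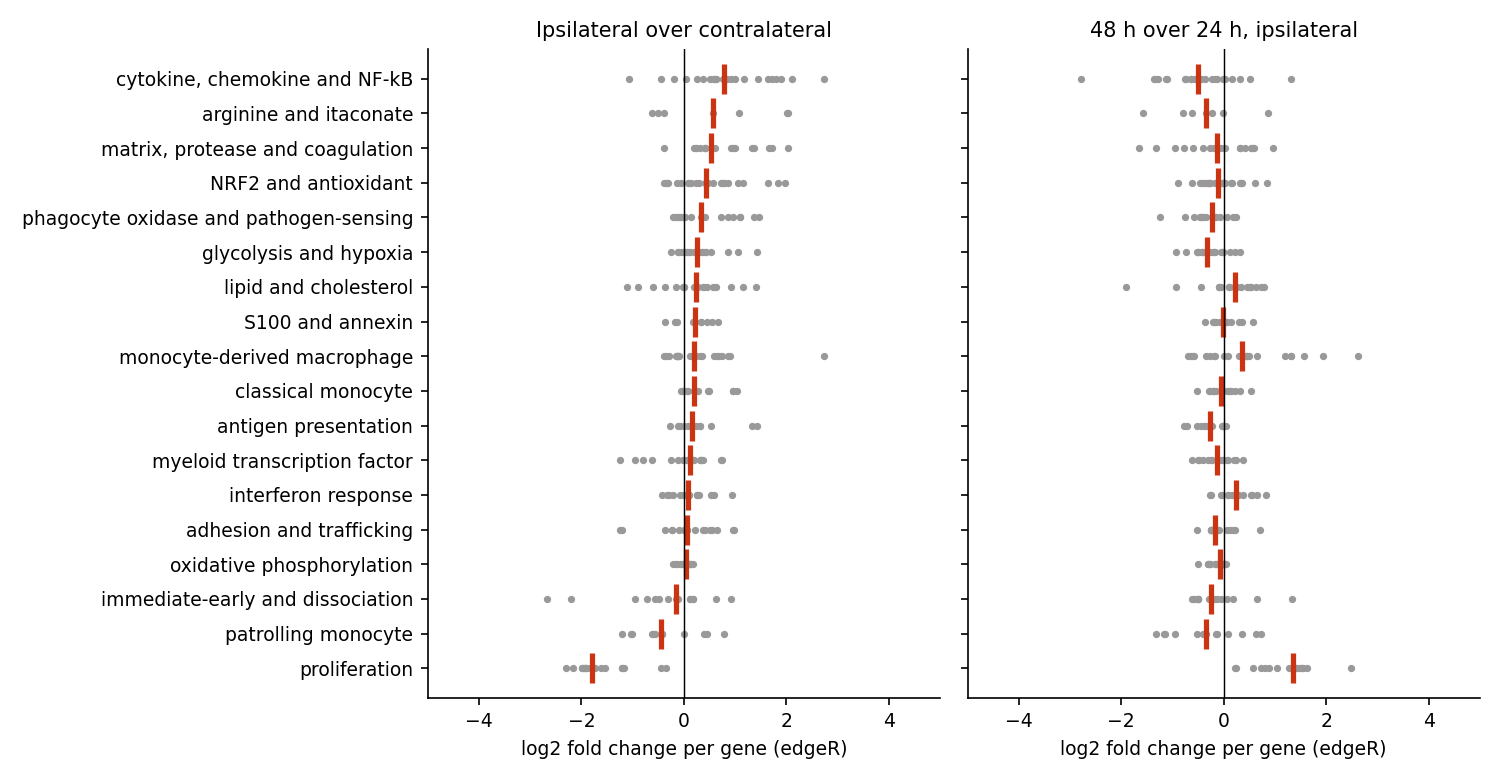
Log2 fold change of each tested gene (grey points) and the median (red mark) of 18 gene lists, ipsilateral over contralateral on the left and 48 h over 24 h in ipsilateral libraries on the right. The cytokine list had a median of 0.78 on the left and -0.50 on the right, and the proliferation list -1.80 on the left and 1.35 on the right. The contrasts share the ipsilateral libraries.

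Between 24 h and 48 h the ipsilateral monocytes showed no gene that passed. In a fit of the 4 combinations of hemisphere and time over all 8 libraries, edgeR called 0 of 9361 genes (0.0%), with 547 at an unadjusted p under 0.05, and DESeq2 called 42 (8 higher and 34 lower at 48 h). In monocytes low in S100a8 and S100a9, edgeR called 14 genes higher at 48 h (0.154% of 9117) and 22 lower (0.241%). With the 4 ipsilateral libraries alone, it called 384. In all monocytes, leaving out the WT contralateral 24 h library gave 61 calls, the Prdx1-/- contralateral 24 h library 40 and the WT ipsilateral 48 h library 2. With 2 libraries a side, 3077 genes (32.9%) had both 48 h values above both 24 h values and 1364 (14.6%) had both below, which is the background for the counts that follow.

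CPM values here are those of all monocytes. Cd9, a tetraspanin of the cell surface, stood at 291 and 280 CPM at 24 h (WT and Prdx1-/-) and at 88.3 and 108 CPM at 48 h. Its log2 fold change was -1.65 (SE 0.20, edgeR adjusted p = 0.251), and it fell in monocytes low in S100a8 and S100a9 (adjusted p = 0.0158). Its contralateral levels were 46.8 to 90.6 CPM. Lpl, the lipoprotein lipase gene, stood at 72.6 and 53.8 CPM at 24 h and at 15.1 and 20.3 CPM at 48 h (log2 fold change -1.90, edgeR adjusted p = 0.368 in all monocytes and 0.0438 in the second fit). The patrolling monocyte gene Treml4 stood at 33.6 and 33.4 CPM against 13.3 and 14.96 CPM, and Il1a at 95.2 and 117 CPM against 31.8 and 66.6 CPM, with edgeR adjusted p = 0.0169 and 0.0286 in the second fit. Hexokinase 2 (Hk2) also fell there (adjusted p = 0.0438). Fabp5, a fatty acid binding protein of macrophages, stood at 231 and 167 CPM at 24 h and at 740 and 351 CPM at 48 h (log2 fold change 1.32, edgeR adjusted p = 0.583 in all monocytes and 0.0438 in the second fit). Wdfy1, Papss2 and Dmxl2 also rose in the second fit, and Wdfy1 stood at 11.9 and 9.18 CPM at 24 h and at 37.7 and 28.0 CPM at 48 h.

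By groups, 19 of 24 cytokine, chemokine and NF-kB genes had a negative log2 fold change at 48 h (median -0.50 against 0.02 over all genes), with both 48 h values below both 24 h values in 13. Glycolysis and hypoxia genes were negative in 20 of 23 (median -0.32), with both values below in 14. Antigen presentation genes were negative in 12 of 13 (median -0.27), with both below in 7. Monocyte-derived macrophage genes were positive in 14 of 22 (median 0.37), with both values above in 11 and both below in 5. All 18 proliferation genes were positive (median 1.35), but 2 had both 48 h values above both 24 h values. In all monocytes no gene of these groups passed. Other lists moved at the same time. Immediate-early and dissociation genes were negative in 11 of 15 (median -0.25), with both values below in 8, neutrophil transcripts in 8 of 11 (median -0.75) and erythrocyte transcripts in 5 of 5 (median -2.20). Border macrophage transcripts were positive in 5 of 5 (median 1.31), with both values above in 4. The part of these lists in the group values was not tested.

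The difference between hemispheres was not shown to change with time. The interaction called 0 of 9361 genes by edgeR (0.0%; 587 at an unadjusted p under 0.05) and 30 by DESeq2. For Il1rn the interaction was -1.14 (SE 0.31, adjusted p = 0.770) and for Nr4a2 0.21 (SE 0.26, adjusted p = 0.870). Without the Prdx1-/- contralateral 24 h library of 28 monocytes, 426 genes were called.

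Libraries labelled Prdx1-/- and WT did not differ in any gene by edgeR (0 of 9361, 0.0%, with 84 at an unadjusted p under 0.05), and DESeq2 called 1, Fabp4. Fabp4, another fatty acid binding protein, stood at 8.47, 8.29, 6.53 and 10.6 CPM in the WT libraries (contralateral and ipsilateral at 24 h, then at 48 h) and at 0, 0.861, 2.04 and 2.73 CPM in those labelled Prdx1-/-, so that no library of one label overlapped the other. Its log2 fold change was -2.43 and its edgeR adjusted p 1.0, and in the 48 h libraries alone -1.99 (adjusted p = 0.325). The Fabp4 levels are low, and the share of all genes with no overlap between the labels was not counted. Irf1, an interferon-induced transcription factor, had a log2 fold change of 0.55 (0.49 at 48 h alone) and Wdfy1 of -0.51 (-0.57), none of them passing. Prdx1 itself was not called over all 8 libraries (log2 fold change -3.81, edgeR adjusted p = 1.0), and was called in the 48 h libraries alone (-6.86, adjusted p = 2.08e-05), where the other 2 genes called were hemoglobin genes. Summed erythrocyte transcripts in monocytes ranged from 18.1 to 7693 CPM over the libraries. Interferon response genes had a negative log2 fold change in 14 of 16 (median -0.32) and glycolysis and hypoxia genes in 22 of 23 (median -0.16), with none passing. In the 48 h libraries alone these were 13 of 16 (median -0.61) and 22 of 23 (median -0.21), again with none passing. Other lists leaned there too. Neutrophil transcripts were positive in 11 of 12 (median 2.16), proliferation genes in 18 of 18 (1.15) and erythrocyte transcripts in 6 of 6 (3.10). Antigen presentation genes were negative in 13 of 14 (-0.34) and monocyte-derived macrophage genes in 19 of 22 (-0.22). Cells high in S100a8 and S100a9 were 12.4% of Prdx1-/- and 0.668% of WT ipsilateral 48 h monocytes, and their part was not tested.

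Cells that failed a single criterion of the rule were set beside the monocytes as a description, without a test, since the rule makes the separation. Levels are means over ipsilateral libraries with at least 20 such cells. The 1569 ipsilateral cells with 2 or more Arg1 UMIs (1779 over all 8 libraries) held more Pf4 (a mean of 1708 CPM against 112), Ccl24 (351 against 35.2), osteopontin (Spp1; 4378 against 645) and Ccl7 (501 against 96.1), and less Ifitm6 (122 against 579). Fn1 was also higher in them than in the monocytes (2747 against 1596 CPM). The 631 ipsilateral cells high in MHC class II genes held more of the invariant chain gene Cd74 (15073 against 255 CPM), its regulator Ciita (103 against 1.45) and Cd209a (237 against 7.29), and less Saa3 (52.9 against 1773) and Slpi (64.8 against 924). The 73 cells high in interferon genes in 2 ipsilateral libraries held more Ifit1 (471 against 5.53 CPM), Cxcl10 (690 against 17.97) and Mx1 (288 against 9.17). The 359 ipsilateral cells with 3 or more Csf3r UMIs held more S100a9 (20701 against 1860 CPM), Retnlg (3500 against 151) and Cxcr2 (155 against 13.7). The 764 ipsilateral cells short of Ccr2, Vcan and F13a1, of which 469 were in the Prdx1-/- 48 h library, held more Camp (13537 against 144 CPM), Ngp (13438 against 108) and Ly6g (383 against 3.03), and the 905 such cells of all 8 libraries had a median of 7203 UMIs against 14905 in monocytes. Along these 5 edges the neighbouring cells were thus marked by macrophage, antigen-presenting, interferon and neutrophil genes.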

How the data were processed

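Single-cell RNA-seq was done on 8 mouse brain hemisphere libraries. The deposited files hold raw UMI counts per gene and cell, not normalized. Per the submitters' processing notes, the tools were Cell Ranger and Seurat and the genome build was mm10; versions and roles are not given in the sources used here. The members and gene lists were chosen with earlier results of these data known.

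Cells with over 10% mitochondrial UMIs were left out and the rule was applied to each cell. Doublets were scored with scanpy 1.11.5 (Scrublet; the top 0.8% per 1000 cells marked) and left out only as an alternative. Counts were summed per library over the monocytes (386188 to 12835779 UMIs) and tested with edgeR 4.0.16 in R 4.3.3 (quasi-likelihood, robust, TMM, filterByExpr, Benjamini-Hochberg, adjusted p under 0.05). DESeq2 1.42.0 was an alternative. A test on simulated counts was run first. Each group has 1 library per genotype, hemisphere and time, so libraries of the other factors served as replicates. No pseudocount enters the CPM, which are counts scaled to a common library total. Shares were compared by exact permutation over libraries (scipy 1.17.1, Python 3.11.15).

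Named genes were the 10 largest called changes in each direction averaging 20 CPM or more over libraries and changing in 1 direction in all matched library pairs, up to 4 genes per list with the smallest p, and, where fewer than 3 passed in a direction, the 3 smallest p. Genes of the rule, mitochondrial, ribosomal, hemoglobin, Xist and Y-linked genes were not named. Gene positions are from GENCODE vM21 (GRCm38). The alternatives tried were other size factors, DESeq2, no filter on low counts, doublets left out, a marker threshold of 20 per 10000, a denominator without cells high in microglia genes, each library left out, a block per pair of hemispheres, single time points or hemispheres, and, added after seeing the data, monocytes low in S100a8 and S100a9, low in patrolling genes, or both.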

Additional observations from a re-analysis of the deposited data

Results flagged for a closer look

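Of 42 screened sets of 4 libraries of 1 hemisphere, 4 held a library far from the other 3, all of them contralateral, and chance alone flags about 1 in 20 such sets. S100a8 stood at 10533 CPM and S100a9 at 7139 CPM in the WT contralateral 24 h library, above the other contralateral libraries. Ly6c2 stood at 264 CPM in the Prdx1-/- contralateral 24 h library, against 866 to 934 CPM in the others. Dusp5 stood at 77.3 CPM in the WT contralateral 48 h library, against 49.2 to 53.6 CPM. The 2 contralateral libraries at 24 h rest on 31 and 28 monocytes.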

How the results depend on the processing

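The difference in monocyte share between hemispheres was 8.91 percentage points and 4.01 when counted among cells low in microglia genes, with exact permutation p = 0.0286 and 0.114, both before adjustment. It was 7.56 to 10.6 with 1 library left out, and the exact permutation p was then 0.0571 without any one contralateral library. The time difference of 5.23 ranged from 3.26 to 7.33 without 1 library, and the genotype difference of 0.868 from -1.83 to 3.75. The 14 genes called between hemispheres became 313 with DESeq2, 108 with no filter on low counts, 257 in monocytes low in patrolling genes, 259 in those low in S100a8 and S100a9, 280 in those low in both, and 2 with a block per pair of hemispheres. They became 0 to 154 without 1 library: 154 without WT contralateral 24 h, 87 without Prdx1-/- ipsilateral 48 h, 7 without WT ipsilateral 48 h, 2 without Prdx1-/- contralateral 24 h, and 0 without any of the other 4. The 0 genes called by time became 42 with DESeq2, 21 with no filter, 153 in monocytes low in patrolling genes, 36 in those low in S100a8 and S100a9, 1 over both hemispheres, 384 in ipsilateral libraries alone, and 0 to 61 without 1 library. The 0 called by genotype became 1 with DESeq2, 3 at 48 h alone and 1 without the 24 h libraries labelled Prdx1-/-, and stayed 0 without any 1 library. The 0 interactions became 30 with DESeq2, 2 with no filter, 3 in monocytes low in patrolling genes, and 0 to 426 without 1 library. The cause of these shifts was not tested. Of 5094 values of 298 named gene results under alternatives, 4703 kept their side of the threshold, 312 newly passed, 79 no longer passed and 0 reversed among called values. The 79 come only from named genes among the 14 called between hemispheres, since no gene had been called by time or genotype. Most of the 4703 belong to genes that were not called and stayed so, and are no measure of how stable the calls are. No paired analysis by replicate number was possible because the labels carry none. With 28 to 112 monocytes in 3 contralateral libraries, depth limits genes of low level there.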
